A study of Mus musculus with 2 samples.

Results

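The genes for the proteins of the cytosolic ribosome were examined in macrophages grown from mouse bone marrow, in RNA of the nucleoplasm. Members were the genes whose symbol is Rpl or Rps followed by a number (with at most 1 of the letters a, x, y or l), or by a, p0, p1 or p2, and which have at least 1 protein-coding transcript. This rule used names and annotation and no measured value. It gave 80 of 55536 mouse genes, 49 for the large subunit (60S) and 31 for the small subunit (40S). A further 3 symbols, Rpl6l, Rpl32l and Rps4l, matched but had no protein-coding transcript, and their gene entries held at most 6.32 counts.

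The cells, of the C57BL/6J strain, received lipid A at 100 ng/ml for 20 min. Lipid A is the part of bacterial lipopolysaccharide that the receptor TLR4 senses. RNA of the soluble nuclear fraction was sequenced, after removal of ribosomal RNA, from 2 libraries of this 1 group. Input was 1 µg of RNA for replicate 1 and 500 ng for replicate 2, so input and replicate cannot be told apart. Both libraries carry 1 donor identifier, and nothing in the labels tells if cultures or animals differed, so the spread between them may be technical. No untreated library was analysed here, and no effect of lipid A was tested.

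Each cytosolic ribosome holds 1 copy of most of these proteins, and the acidic stalk proteins P1 and P2 are present in more. Their genes are short, are transcribed in every cell that makes protein, and in vertebrates mostly start within a run of pyrimidines. The mRNAs therefore begin with a 5′ terminal oligopyrimidine (TOP) tract, through which mTOR and LARP1 set their translation. Many of the introns carry small nucleolar RNAs (snoRNAs), which guide the modification of ribosomal RNA. For RPL3 and RPL12 in human cells, an excess of the protein is known to favour splice forms that are degraded by nonsense-mediated decay.

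The start-site sequences show how the members differ in the pyrimidine run at the annotated start that was used. RefSeq promoter entries (GRCm38.p6, 250 bases before to 50 after the start) were matched by symbol for 60 of the 80 members. The longest run of C and T touching the 10 bases on either side of the annotated start had a median of 7 bases in these 60 members (2 to 21) and of 4 bases in all 27025 genes of the table. A run of 8 or more was present in 28 of 60 members (46.7%) and in 15.8% of all genes. Where a gene had several entries the longest run was taken, which concerned 16.7% of members and 15.4% of all genes. The 5 members with the longest runs and the 3 with the highest RNA levels among those matched are printed here in 30 bases around the start, 15 on either side, with the run in capitals as far as it lies in the window.
Rpl7a, chr2:26910792-26910821, plus strand: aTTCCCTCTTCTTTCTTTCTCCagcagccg
Rpl34, chr3:130730323-130730352, minus strand: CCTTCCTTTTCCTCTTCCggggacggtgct
Rpl27a, chr7:109519180-109519209, plus strand: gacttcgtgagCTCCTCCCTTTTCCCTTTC
Rpl35, chr2:39005117-39005146, minus strand: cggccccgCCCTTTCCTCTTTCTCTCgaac
Rpl15, chr14:18270972-18271001, minus strand: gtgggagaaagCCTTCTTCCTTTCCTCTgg
Rpl10, chrX:74270801-74270830, plus strand: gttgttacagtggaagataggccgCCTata
Rpl10a, chr17:28328456-28328485, plus strand: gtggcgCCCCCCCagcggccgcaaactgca
Rpl41, chr10:128549154-128549183, minus strand: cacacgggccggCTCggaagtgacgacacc

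The runs were 21 bases in Rpl7a, 20 in Rpl34 and in Rpl27a, 18 in Rpl35 and 17 in Rpl15, against 3 in Rpl10, 7 in Rpl10a and 3 in Rpl41. Some starts lay well inside the annotated gene span, as in Rpl41 (gene end 128549305) and Rpl35 (39005624), both on the minus strand. Run lengths hold for the start used, and a short run does not show that a TOP tract is missing. Letters of known promoter elements were searched on both strands of the 300 bases, and overlaps between elements were allowed. CTTCCG, the core of sites for ETS factors such as GABP, was in 41 of 60 members (68.3%) and in 18.8% of all genes. CTTTCC was in 32 of 60 members (53.3%) and in 29.3% of all genes. AAGATGG, the core of YY1 sites, was in 9 of 60 members (15%) and in 7.28% of all genes. TATAAA was in 6 of 60 members (10%) and in 15.7% of all genes. These are matches of letters only.

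Summed over mouse genes, replicate 1 had 18194818 estimated counts and replicate 2 had 18667509. All 8 macrophage markers reached 1 TPM, a length-normalised unit of abundance, in both libraries, and none of 17 neutrophil, B cell, T and NK cell or erythroid markers did so in both. Those 4 lists summed to between 0 and 13.0 counts each in replicate 1 and between 2.00 and 19.0 in replicate 2. The nuclear RNA Malat1 took 9.72% and 10.2% of counts in replicates 1 and 2, and mitochondrially encoded genes took 3.19% and 10.5%. TPM is a share of the whole library, and its values were lower in replicate 2 for 82.4% of 9889 detected nuclear-encoded protein-coding genes and for 69 of 77 detected members. The part of the mitochondrial share in this was not tested. In bulk RNA, fewer cells of a type and less RNA per cell cannot be told apart.

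Ribosomal protein genes were nearly all present and moderately abundant in the nucleoplasm. Of the 80 members, 77 reached 1 TPM in both libraries and the other 3 were at 0. The median level over all 80 was 34.0 TPM in replicate 1 and 25.2 TPM in replicate 2, a mean of 29.6 ± 6.21 (SD, n = 2). Detected nuclear-encoded protein-coding genes had medians of 11.2 and 8.53 TPM in the same libraries. By mean TPM, 56 of 80 members ranked within the highest 25% of these detected genes. Together the members held 34103 counts in replicate 1 and 30858 in replicate 2. That was 0.187% (95% Clopper-Pearson interval 0.185 to 0.189) and 0.165% (0.163 to 0.167) of all gene counts. With nuclear-encoded protein-coding genes alone in the total, the share was 0.256% and 0.252%.

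The members did not stand at 1 level. Among the 77 detected members the 90th percentile of TPM was 4.95 times the 10th in replicate 1 and 5.37 times in replicate 2. The highest was 38.5 and 30.3 times the lowest. The 10 most abundant members held 28.9% and 29.5% of the members' summed TPM. The order of levels was similar in the libraries, with Pearson's r of 0.876 and Spearman's rho of 0.874 for log2 TPM across the 77 members. These correlations are descriptions, since the points share library depth and transcript models.

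Rpl10, whose protein joins the large subunit late, in the cytoplasm, was the most abundant member. The gene (ENSMUSG00000008682.13) lies on chromosome X (74270812 to 74273135, mm10). Its level was 169 TPM in replicate 1, with 108 TPM in replicate 2, and it ranked 253 by mean TPM among 22015 nuclear-encoded protein-coding genes. Rpl10a, a protein of the L1 stalk beside the exit site for tRNA, followed at 103 and 69.5 TPM. Rpl41, the smallest protein of the ribosome, was at 91.3 and 74.0 TPM. Rpl3, which reaches towards the peptidyl transferase centre, was at 83.0 and 63.2 TPM. Rpl10 was highest of the 4 in each library and Rpl3 lowest, while Rpl10a stood above Rpl41 in replicate 1 and below it in replicate 2.

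Of the small subunit genes, Rps28 was at 87.6 TPM (replicate 1) and 67.6 TPM (replicate 2), and Rps12 at 87.8 and 62.5 TPM. Rps9 was at 93.2 and 46.8 TPM, and Rps2 at 68.1 and 49.7 TPM. Rps24 went the other way, with 58.7 TPM in replicate 1 and 87.2 TPM in replicate 2. Rpsa, which was first described as a laminin receptor and sits on the small subunit, was at 48.4 and 36.4 TPM.

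The 3 stalk proteins recruit the GTPase translation factors, with Rplp0 as the base that anchors Rplp1 and Rplp2. Rplp1 had 93.3 TPM in replicate 1 and 44.5 in replicate 2, Rplp2 at 64.6 and 34.1 TPM, and Rplp0 at 54.2 and 29.4 TPM. All 3 thus stood in the order Rplp1, Rplp2, Rplp0 in each library, and the distance between neighbours was smaller than the difference between libraries.

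The subunits were at similar levels. The median was 34.2 TPM in replicate 1 and 28.3 TPM in replicate 2 for the 49 large subunit genes, against 32.7 and 24.1 TPM for the 31 small subunit genes. On the log2(TPM + 0.1) scale the large subunit median exceeded the small by 0.15 ± 0.11 (SD, n = 2), by 0.07 in replicate 1 and 0.23 in replicate 2. In the second quantification of the same libraries the mean difference was -0.0057, so no difference in level between the subunits was resolved.

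**Figure D1:**
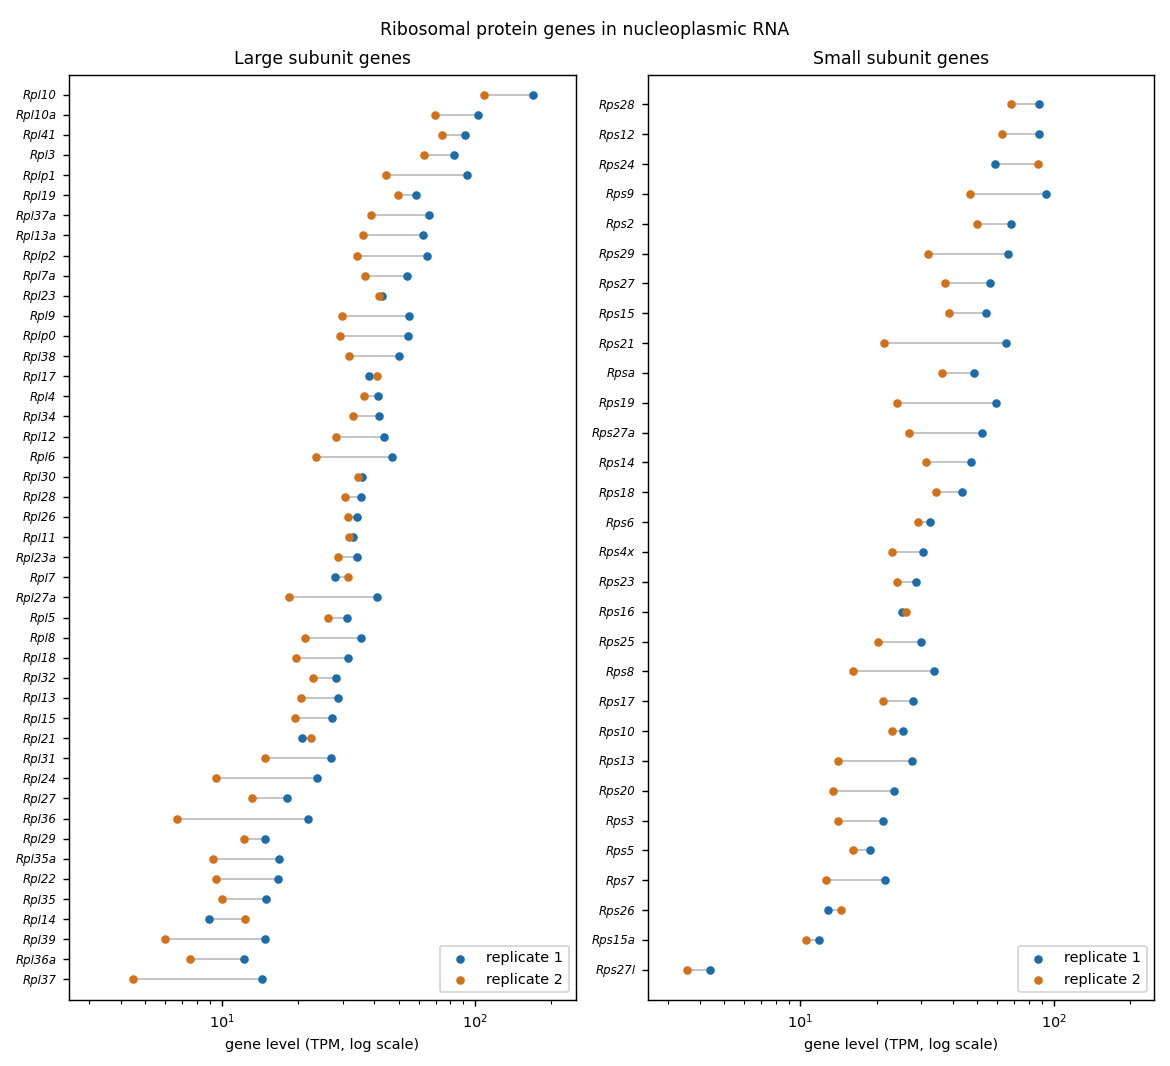
Level of 75 detected members in the 2 libraries, with large subunit genes on the left and small subunit genes on the right. Each point is 1 library, the horizontal axis is TPM on a log scale, and the 3 members at 0 are not drawn. Most members lie between about 10 and 100 TPM, Rpl10 is highest, and replicate 2 is the lower of the pair for 69 of 77 members.

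Paralogues known for restricted expression were near or at 0. Rpl3l, which replaces Rpl3 in striated muscle, Rpl10l, which acts in the male germ line of the mouse, and Rpl39l, a testis paralogue of Rpl39, had 0 counts in both libraries. A count of 0 allows a share of up to 1.65e-05% of counts in replicate 1 and 1.61e-05% in replicate 2. The second quantification gave Rpl3l 6 and 4 estimated counts, and Rpl10l and Rpl39l 0. Their partners were at 83.0 and 63.2 TPM (Rpl3), 169 and 108 TPM (Rpl10), and 14.9 and 5.96 TPM (Rpl39). Rps27l, a paralogue that p53 induces in human cells, was the lowest detected member at 4.39 and 3.57 TPM, against 55.9 and 37.4 TPM for Rps27. Rps4x was at 30.5 and 23.0 TPM, and its processed copy Rps4l held 1.00 and 0 counts.

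Ribosome genes that the naming rule leaves out were spread over a wide range of levels. Of 8 listed, 7 reached 1 TPM in each library, and the list's median was 19.7 TPM in replicate 1 and 17.8 TPM in replicate 2, against 34.0 and 25.2 TPM for the members. Fau, which encodes the ribosomal protein eS30 fused to a ubiquitin-like protein, was the highest at 73.3 and 83.6 TPM. Of the paralogues on the list, Rpl36al was at 10.9 and 7.22 TPM, Rpl22l1 at 9.00 and 5.35 TPM, Rpl7l1 at 8.81 and 6.33 TPM, and Rps27rt at 0.33 and 0.26 TPM. All 15 listed translation factors and other genes with TOP mRNAs reached 1 TPM, with medians of 21.8 and 20.4 TPM. Eef1a1, the elongation factor that delivers tRNA, was far above any member at 628 and 480 TPM. The 78 mitochondrial ribosomal proteins had medians of 3.63 and 3.54 TPM, with 72 at 1 TPM or more in both libraries. The 30 ribosome biogenesis factors had medians of 7.61 and 7.26 TPM. All 10 listed regulators of TOP mRNAs were present, among them Larp1 at 23.8 and 19.2 TPM and Mtor at 13.8 and 7.39 TPM.

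A large part of the members' RNA was assigned to transcripts of the retained-intron class, which do not always keep a whole intron. The members have 484 annotated transcripts, of which 226 are protein_coding, 172 retained_intron, 62 processed_transcript and 24 nonsense_mediated_decay. Retained-intron transcripts took 27.9% of the members' counts in replicate 1 and 27.8% in replicate 2, against 17.3% and 17.2% over all nuclear-encoded protein-coding genes. That total includes genes without such a transcript, while 77.5% of members have one. A few genes weighed heavily. Of the 9528 retained-intron counts of members in replicate 1, Rpl3 held 1389, Rpl10a 1262 and Rpl10 984. In replicate 2 they held 1803, 916 and 782 of 8581. Protein-coding transcripts took 65.5% and 65.0%, and transcripts marked for nonsense-mediated decay 3.11% and 3.50%. The tables hold no entry for unspliced precursor RNA. A precursor and a spliced transcript that keeps 1 intron can therefore not be told apart.

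The retained-intron share was next taken gene by gene, as the percent of a gene's summed transcript TPM. It could be given for the 62 members with a retained-intron transcript. Their median share was 19.5% in replicate 1 and 19.3% in replicate 2, a mean of 19.4% ± 0.160 (SD, n = 2). All 6517 genes that have a transcript of this class and average at least 1 TPM had medians of 32.0% and 32.9%. Taken over counts, which weight long transcripts more, the medians were 22.6% and 20.1% in members against 19.3% and 20.0% in all these genes. The direction of the difference between members and all genes thus depended on the unit.

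Members differed widely in this share and kept their order between libraries, with Pearson's r of 0.916 and Spearman's rho of 0.902 across the 62. A share of 50% or more in both libraries was found in 10 of 62 members (16.1%), beside 17.3% of all genes measured. In both libraries and both quantifications it was found in 9 of 62 members, beside 13.2% of all genes. At the other end, 12 of 62 members were below 10% in both libraries, beside 8.88% of all genes.

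The highest share was that of Rps16, a protein of the small subunit head, at 87.7% of TPM in replicate 1 and 95.2% in replicate 2. Rpl5, which carries 5S rRNA into the large subunit together with Rpl11, followed at 79.8% and 86.3%. Rpl37 was at 81.3% and 69.1%, Rpl3 at 61.2% and 84.0%, Rps20 at 77.1% and 59.9%, and Rpl10a at 69.5% and 61.2%. In the second quantification the means of these 6 were 73.9% (Rps16), 78.3% (Rpl5), 79.0% (Rpl37), 72.6% (Rpl3), 65.5% (Rps20) and 71.3% (Rpl10a). By counts in the first quantification, Rps20 was at only 25.9% and 13.2%. The others of the 6 were at 69.1% or more in each library. The other 4 members above 50% of TPM in both libraries were Rpl10, Rpl15, Rpl27a and Rps26. Of these, Rpl15 was at 28.7% and 26.6% by counts, and at 38.1% and 43.7% of TPM in the second quantification.

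The lowest shares were at most 8.45% in either library. Rps27l had 0% in both libraries, and Rps15a 7.43% and 0%. Rplp0 stood at 3.06% and 5%, Rps28 at 5.45% and 3.52%, and Rpl23a, which lies at the exit of the peptide tunnel, at 1.44% and 8.45%. The second quantification put Rps28 at 21.4% and 16.9% and Rps27l at 32.0% and 7.73%. By counts in the first quantification, Rps28 was at 26.8% and 18.8%. The low value of Rps28 thus depended on the unit and on the quantification, and that of Rps27l on the quantification. Rps27l had 25 and 28 counts in all, the fewest of any detected member.

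**Figure D2:**
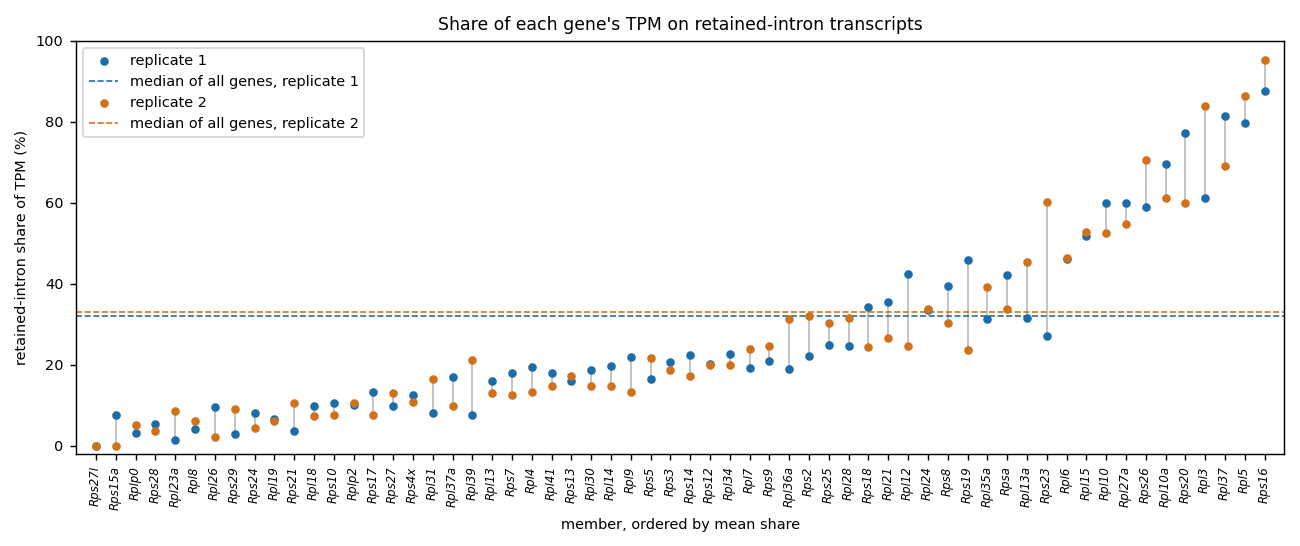
Retained-intron share of TPM for 60 of the 62 members with such a transcript, ordered by mean share. Points are the 2 libraries, the vertical axis is percent of the gene's transcript TPM, and dashed lines mark the medians of all 6517 genes measured (32.0% and 32.9%). Members run from 0% in Rps27l to 87.7% and 95.2% in Rps16, and most lie below the dashed lines.

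The retained parts could be placed on the annotation. In 42 of the 62 members at least 1 intron of a protein-coding transcript lay wholly inside an exon of a retained-intron transcript, and 113 such introns were distinct. All 113 began with GT and ended with AG, and 23 held an annotated snoRNA. In the other members, among them Rpl37, Rps23 and Rpl26, the class alone does not show that a whole intron is kept. In Rpl5 the only transcript with such an intron held 15.8 and 14.2 counts in replicates 1 and 2. All its retained-intron transcripts held 315 and 351 counts. The placement rests on annotation, and the same was not counted over all genes. It includes Rpl23a, whose only transcript with such an intron had 0 counts in both libraries. Overlapping introns were counted apart, as in Rps24, where introns of 558, 1936 and 2281 bases share a 5′ end. A few introns of Rpl3, Rpl10a, Rpl10 and Rps16 are shown as examples of what the retained-intron transcripts keep. They were picked after the counts were seen and are not a ranking, since other retained introns lie on transcripts with more counts. The first and last 2 bases are in capitals, and the sequences are GENCODE M21 transcript sequences on mm10. In Rpl3 and Rpl10a the introns are long, and their first 12 and last 18 bases are given, while the short introns of Rpl10 and Rps16 are printed whole.
Rpl3 intron 3 of 9, chr15:80081032-80081614, minus strand, 5′ end: GTaagaggctct
Rpl3 intron 3 of 9, same intron, 3′ end: tgtgctctgctcctgaAG
Rpl10a intron 3 of 5, chr17:28329048-28329373, plus strand, 5′ end: GTtggcaccgct
Rpl10a intron 3 of 5, same intron, 3′ end: ctcccctcccaaacgcAG
Rpl10 intron 3 of 6, chrX:74271719-74271799, plus strand: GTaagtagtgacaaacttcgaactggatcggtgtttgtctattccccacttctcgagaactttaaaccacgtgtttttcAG
Rpl10 intron 6 of 6, chrX:74272835-74272914, plus strand: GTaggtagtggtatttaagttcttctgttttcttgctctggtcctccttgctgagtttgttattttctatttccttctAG
Rps16 intron 3 of 4, chr7:28352274-28352362, plus strand: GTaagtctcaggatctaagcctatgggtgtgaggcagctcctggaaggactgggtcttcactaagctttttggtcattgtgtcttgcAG

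The Rpl3 transcript that keeps intron 3 (583 bases) is otherwise spliced, with 9 exons. It held 1025 counts in replicate 1 and 1252 in replicate 2, more than any other transcript of the gene. The leading Rpl10a transcript that keeps intron 3 (326 bases) held 714 and 456 counts, and others that keep it held fewer. The leading retained-intron transcript of Rpl10 keeps intron 2 (635 bases, not printed) and held 404 and 455 counts. The leading Rpl10 transcript that keeps intron 3 (81 bases) held 242 and 96.2 counts, and another that keeps it held 32.2 and 4.35. The Rpl10 transcript that keeps intron 6 (80 bases) held 152 and 104 counts. The leading retained-intron transcript of Rps16, with 93.4 and 163 counts, keeps part of an intron and no whole one. The one that keeps intron 3 (89 bases) held 49.7 and 31.1 counts.

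An annotated snoRNA lay within 29 of the 80 members on the same strand, 56 snoRNAs in all. The share of all genes that hold a snoRNA was not counted, so this is no contrast with other genes. The median retained-intron share of TPM was 31.5% in replicate 1 and 26.7% in replicate 2 for the 25 host members with a share. It was 17.9% and 14.8% for the 37 others. This contrast was taken in TPM only, and the comparison of members with all genes depended on the unit. Median levels of the detected members were 38.3 and 28.3 TPM for 29 hosts, against 32.9 and 24.2 TPM for 48 others. Among the 6 members with the highest shares of TPM, Rps16, Rpl5, Rpl37, Rpl3 and Rps20 were hosts and Rpl10a was not. By counts, Rps20 was at only 25.9% and 13.2%. Host status does not mean that the retained intron holds the snoRNA. Rpl3 intron 3 and Rps16 intron 3 hold none, while Rpl3 intron 5 and Rps20 intron 2 do. Rpl4 held the most, with 5 snoRNAs, and its share was 19.4% and 13.3%. Hosts and others were set side by side without a test, since members of 1 library are not replicates.

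The 2 libraries were then compared member by member with counts scaled by TMM, which aligns the bulk of genes. Over the 77 members whose scaled counts averaged at least 10, the log2 ratio of replicate 2 over replicate 1 had a median of -0.09, against 0.0034 over all 15557 genes. The median absolute log2 ratio was 0.24 in members and 0.31 in all genes. More than a 2-fold difference, with a 95% counting interval clear of 0, was found in 3 of 77 members, all lower in replicate 2, and in 8.03% of all genes in either direction (3.67% lower and 4.36% higher). With no fold minimum, 26 of 77 members were lower in replicate 2 beyond counting error (33.8%) and 14 higher (18.2%). All genes had 25.6% lower and 24.5% higher. Under library totals in place of TMM, 31 members were lower and 9 higher, beside 32.9% of all genes lower and 18.2% higher. The intervals cover counting error only.

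The 3 members past 2-fold were Rps21, Rpl36 and Rpl37, all small proteins of their subunits. Rps21 had 235 counts in replicate 1 and 100 in replicate 2, a log2 ratio of -1.17 (interval -1.53 to -0.83). Rpl36 had 73.6 and 29 counts, a log2 ratio of -1.28 (-1.96 to -0.65). Rpl37 had 146 and 62.3 counts, a log2 ratio of -1.17 (-1.63 to -0.74). Rpl39, which lines the peptide exit tunnel, and Rpl24 came next at -0.99 and -0.95. Rpl36 has 9 named pseudogene copies, which held 56.5 and 16.0 counts, so its counts are uncertain by the way reads were divided. In the second quantification, before scaling, Rps21 held 285 and 169 estimated counts, Rpl36 177 and 106, and Rpl37 211 and 115. That quantification also had 3 members past 2-fold between replicates. Rpl7 was among them, with 586 and 7699 estimated counts, so the set was not the same.

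The 3 stalk genes moved together, with log2 ratios of -0.61 for Rplp0, -0.67 for Rplp1 and -0.67 for Rplp2, each with an interval clear of 0. In the opposite direction, Rps24 had 770 counts in replicate 1 and 1133 in replicate 2, a log2 ratio of 0.62 (0.48 to 0.75). Across the 77 members the ratio had Pearson's r of 0.203 and Spearman's rho of 0.165 with the log2 length of the coding transcripts. In all 11734 protein-coding genes measured, r was -0.0019 and rho was -0.0032. These correlations are descriptions over genes of 2 libraries. Among the shortest 25% of members (20 genes of up to 544 bases) 6 were lower beyond counting error and 1 higher, and among the 57 others 20 were lower and 13 higher.

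**Figure D3:**
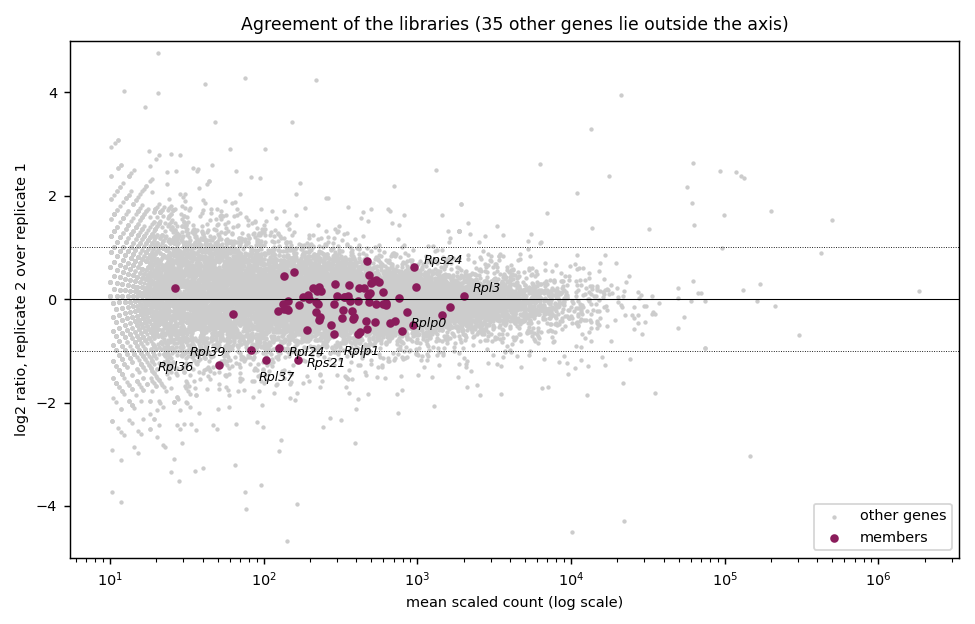
Log2 ratio of replicate 2 over replicate 1 against the mean scaled count on a log axis, for all genes with a mean of 10 or more (grey) and the 77 members among them (purple). Dotted lines mark 2-fold, and 35 other genes lie outside the vertical axis. Rps21, Rpl36 and Rpl37 lie below the lower line, and no member lies above the upper one.

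The classes of transcript did not always move together between the libraries. Among the 62 members with a retained-intron transcript, the log2 ratio of replicate 2 over replicate 1 had a median of -0.19 for retained-intron transcripts and of -0.06 for all their other transcripts. Retained-intron transcripts were over 2-fold lower in replicate 2 in 4 of 62 members, beside 7.35% of all genes, and over 2-fold higher in 2, beside 5.95%. Other transcripts were over 2-fold lower in 3 of 62 members, beside 4% of all genes, and higher in none, beside 1.2%. The retained-intron share of TPM was higher in replicate 2 in 27 of 62 members (43.5%), beside 52.4% of all genes. In 7 of 62 members (11.3%), the classes moved in opposite directions, each beyond counting error, beside 11.7% of all genes measured. The share of members was thus close to that of all genes. The 7 included Rpl3, Rpl26, Rps15a, Rps16, Rps20 and Rps23, of which Rpl26 and Rps23 were named after their values were seen. No count minimum was set for the classes, and the retained-intron transcript of Rps15a held only 5.84 and 0 counts.

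Rpl3 showed the widest gap between its classes at high counts. The fully spliced coding transcript (ENSMUST00000081650.14) held 529 counts in replicate 1 and 133 in replicate 2. All transcripts other than retained-intron ones fell to 208 counts in replicate 2, against 620 in replicate 1, a log2 ratio of -1.51 (-1.75 to -1.29). Retained-intron transcripts held 1389 and 1803 counts, a log2 ratio of 0.44 (0.33 to 0.54). The gene as a whole hid this, with 2010 counts in each library. In the second quantification the coding transcript held 553 and 200 estimated counts and the one that keeps intron 3 held 1151 and 1598.

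Rps23, a protein of the decoding centre, had 35.8 counts on its retained-intron transcript in replicate 1 and 85.4 in replicate 2, while its other transcripts held 208 and 110. Its share was 27.2% of TPM in replicate 1 and 60.1% in replicate 2, the widest difference among members. Shares of TPM differed by over 20 points in 3 of 62 members (Rpl3, Rps19 and Rps23), beside 8.93% of all genes. By counts, replicate 2 minus replicate 1 was 20.5 points in Rpl3 and 29.1 in Rps23. In Rps19 it was only -1.84 points, from 61.5% to 59.7%, so its difference depended on the unit. Rpl26 went the other way, with 26.4 counts in replicate 1 and 6.59 in replicate 2 on retained-intron transcripts and 188 and 236 on the others.

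**Figure D4:**
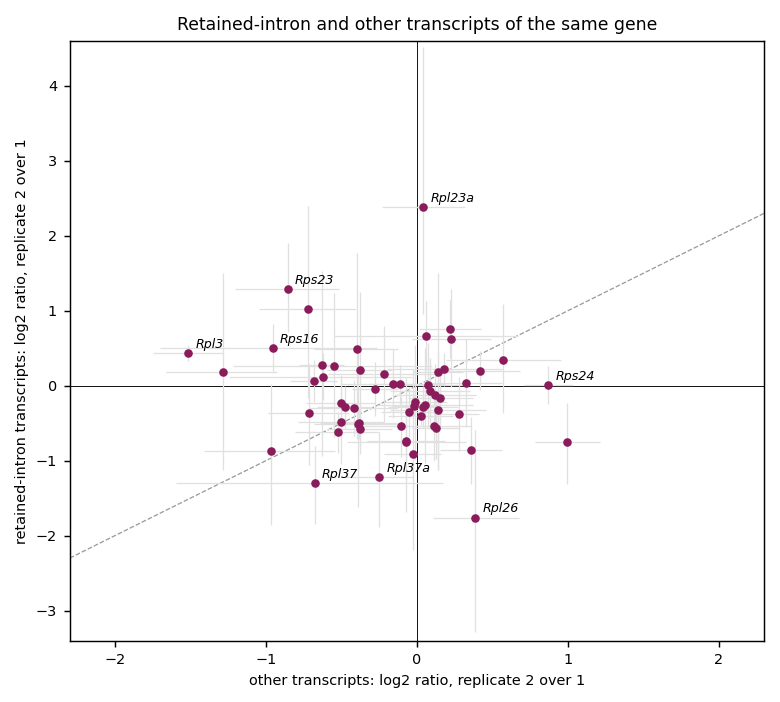
Log2 ratio of replicate 2 over replicate 1 for retained-intron transcripts (vertical) against all other transcripts (horizontal) of the same member, for 58 members with at least 20 retained-intron counts in the 2 libraries together. Bars are exact 95% counting intervals and the dashed line marks equal ratios. Rpl3, Rps16 and Rps23 lie in the upper left, and Rpl26 in the lower right.

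The deposited tables hold a second quantification of the same reads, which shows how far a member's value rests on the way reads are assigned. Ratios of second over first quantification were centred on the median of all genes with 1 TPM or more in both tables, which was -0.95 in replicate 1 and -0.04 in replicate 2 on the log2 scale. Members had centred medians of -0.38 and -0.41 over 77 genes. More than a 2-fold difference in the same direction in both libraries was found in 2 of 77 members (2.60%), both lower in the second quantification, beside 7.20% of 11756 genes in either direction and 0.553% lower. Across members log2 TPM in the tables had Pearson's r of 0.891 in replicate 1 and 0.811 in replicate 2.

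The 2 members were Rps12 and Rpl12, a protein at the base of the stalk. Rps12 had 10.6 TPM (replicate 1) and 15.5 TPM (replicate 2) in the second quantification, against 87.8 and 62.5 TPM in the first, a centred log2 ratio of -2.10 and -1.97. Rpl12 was at 6.74 and 7.80 TPM in the second, against 43.9 and 28.3 TPM in the first, a centred log2 ratio of -1.75 and -1.82. Rps12 has 24 named pseudogene copies and Rpl12 has 2, and their part in this was not tested. By counts, not centred, Rps12 held 348 and 430 in the second quantification against 651 and 597 in the first. Rpl12 held 319 and 352 counts against 566 and 509. The retained-intron share of TPM was 56.5% and 57.4% for Rps12 in the second, against 20.2% and 20.0% in the first. For Rpl12 it was 76.1% and 82.8%, against 42.3% and 24.7%. Rpl10 was at 45.4 and 48.1 TPM in the second, against 169 and 108 TPM in the first, a centred log2 ratio of -0.95 and -1.13.

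Rpl7 differed in 1 library only. In replicate 2 it held 7699 estimated counts and 176 TPM in the second quantification, against 570 counts and 31.5 TPM in the first, a centred log2 ratio of 2.52. In replicate 1 it held 586 estimated counts in the second, against 468 in the first, with a centred log2 ratio of -0.21. Of the 7699 counts, 7555 lay on 1 coding transcript (ENSMUST00000058437.13). Rpl35a was higher in the second quantification by 0.69 and 0.88 on the centred log2 scale, short of 2-fold.

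**Figure D5:**
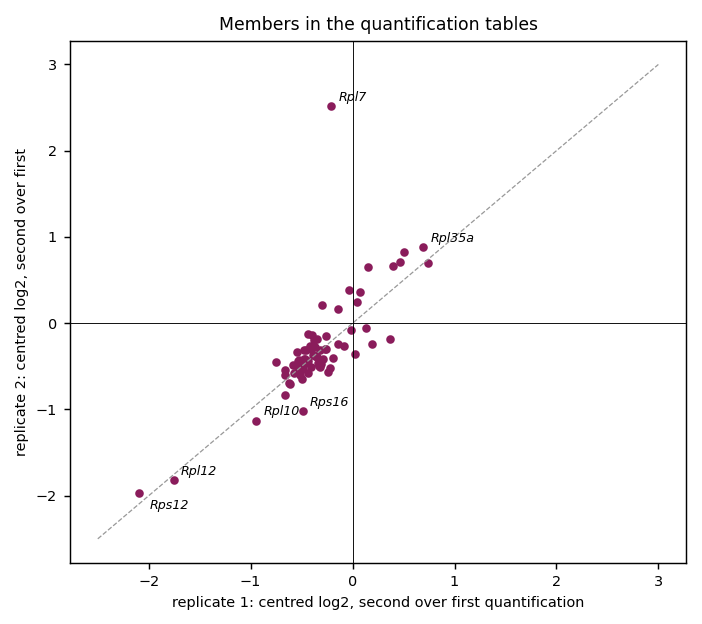
Centred log2 ratio of the second over the first quantification in replicate 2 (vertical) against replicate 1 (horizontal) for the 77 detected members. The dashed line marks equal ratios. Rps12 and Rpl12 lie near -2 in both libraries, and Rpl7 lies at 2.52 in replicate 2 only.

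Copies of these genes elsewhere in the genome can take reads from them. There were 293 copies of 55 members named as pseudogenes, of which 287 were annotated as processed pseudogenes and 6 as protein-coding, and 195 had 0 counts in both libraries. All copies together held 984 counts in replicate 1 and 1015 in replicate 2, which was 2.80% and 3.19% of the counts of members and copies. The second quantification gave the copies 2626 and 3033 estimated counts, 5.93% and 5.63%. Of these, 434 and 618 lay on Rpl10-ps3 and 365 and 143 on Rps12-ps3, both annotated as protein-coding. The copies of Rps2 held the most in replicate 1, with 192 counts, and 156 in replicate 2, against 941 and 762 for Rps2 itself. The 144 counts on copies of Rps6 in replicate 2 stood against 10.4 in replicate 1, while Rps6, the target of the S6 kinases, had 442 counts in replicate 2 and 395 in replicate 1.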

How the data were processed

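The authors deposited 3 tables per library, with mm10 and GENCODE M21 named in the accompanying notes. Per the file headers, a gene table and a transcript table come from a first quantification of the RSEM kind. The deposited values in them are expected counts, TPM (also as posterior means) and FPKM. A further deposited transcript table, with the headers of kallisto, holds the second quantification as estimated counts and TPM. Program versions, filters and strand setting are not given in these sources. Symbols and classes came from the transcript names and coordinates from GENCODE M21.

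For ratios, the deposited counts were rounded to whole numbers. TMM factors came from edgeR 4.0.16 under R 4.3.3, with a prior count of 0.5 and exact binomial 95% intervals, which cover counting error only. With 1 group no test between groups was possible, and values are means and SD over 2 libraries. Simulated counts with known folds were used to check the ratios. The software was matplotlib 3.10.9, scipy 1.17.1, pandas 2.3.3 and numpy 2.4.6 in Python 3.11.15. Alternatives included DESeq2 1.42.0 size factors, other scalings, units, minimums and pseudocounts, the second quantification and leaving out each library.

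The members, lists and rules were chosen with earlier results of these data known. The text names the 10 members highest by mean TPM, those under 1 TPM, the 6 highest and 6 lowest retained-intron shares, the 5 largest ratios between replicates (mean scaled count of 50 or more) and between quantifications, the paralogue pairs, the stalk genes and Rpsa. A few genes are counted in the totals and not reported here by name. Members named beyond this rule were chosen after their values were seen. Overlapping and antisense genes may share reads with members.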

Additional observations from a re-analysis of the deposited data

How the results depend on the processing

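Of 47 recomputed values, 30 stayed within the spread between libraries (counts within 1.5 times, ratios within counting error) and 17 moved. For the members' share, median TPM, subunit difference and retained-intron share, leaving out 1 of 2 libraries always stays within that spread. Those values are among the 30 by construction and say nothing of stability. The members' share of counts, 0.176%, was 0.276% over TPM and 0.254% with nuclear-encoded protein-coding genes as the total, and ran from 0.165% to 0.187% without 1 replicate. Their median of 29.6 TPM was 16.5 TPM in the second quantification and 118 TPM when rescaled over nuclear-encoded protein-coding genes, and ran from 25.2 to 34.0 without 1 replicate. The large minus small subunit difference turned from 0.15 to -0.0057 in the second quantification, and ran from 0.07 to 0.23 without 1 replicate. The median retained-intron share of 19.4% was 21.3% by counts, 25.1% in the second quantification, 20.6% with only coding and retained-intron transcripts in the denominator and 19.7% at a minimum of 5 TPM, and ran from 19.3% to 19.5% without 1 replicate. The median log2 ratio of replicates, -0.09, was -0.12 with DESeq2 size factors, -0.19 with library totals, -0.49 by TPM and -0.20 in the second quantification. All genes shifted too, to -0.03, -0.09, -0.35 and 0.0021. The members' median minus that of all genes, -0.10 in the main analysis, was -0.10, -0.10, -0.14 and -0.20. Members over 2-fold between replicates numbered 3, against 5 with library totals and 10 by TPM, which has no counting interval. In the second quantification they also numbered 3, but were not the same 3. Members over 2-fold between quantifications numbered 2, against 4 without centring, and ran from 2 to 5 without 1 replicate, 5 being replicate 2 alone. The cause was not tested. No paired analysis was possible because there is 1 group. Depth limited short members with few counts, such as Rps27l and Rpl36.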
